A study of Mus musculus with 9 samples.

Results

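The BAF chromatin remodelling subunits described here are 10 genes, Smarca4, Smarca2, Smarcc1, Smarcc2, Arid1a, Arid1b, Smarcd1, Smarcb1, Brd9 and Bicra, chosen by name for their place in the complex. Earlier results of these data were known when they were chosen. All 10 were found in the count table by their Ensembl identifiers, among 38293 genes in all. BAF, the mammalian SWI/SNF complex, uses the energy of ATP to slide or evict nucleosomes and so to open chromatin at promoters and enhancers. It is built around one or the other of a pair of ATPases and shared scaffold subunits, to which variable subunits are added: an ARID1 protein marks canonical BAF, whereas BRD9 and a GLTSCR1-type protein, which Bicra encodes, mark the smaller non-canonical GBAF. Mouse embryonic stem cells are known for an assembly with Smarca4, Smarcc1, Smarcd1 and Arid1a, and several subunits are exchanged for their paralogs when the cells differentiate.

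RNA was sequenced from E14, an established line of mouse embryonic stem cells (mESC) of strain 129/Ola, in 3 culture states with 3 libraries each. The mESC-2i libraries came from naive cells in N2B27 medium with 1 μM of the MEK inhibitor PD0325901, 3 μM of the GSK3 inhibitor CHIR99021 and 10 ng/mL leukaemia inhibitory factor (mLIF). The titles of these libraries carry the tag LT, which they do not spell out and which the titles of the other states lack. The mESC-ser libraries came from cells on gelatin in DMEM with 15% foetal bovine serum and 10 ng/mL mLIF. The EpiLC libraries came from epiblast-like cells, which were made from naive mESC on fibronectin in N2B27 with 20 ng/mL activin A, 12 ng/mL bFGF and 1% knockout serum replacement (KSR). The labels give no genetic change, and all 3 came from the same cell line. A state and its medium cannot be told apart. The labels number the libraries as biological replicates without saying what separates them, so p-values measure the spread between these libraries. The time that EpiLC spent in culture was not given in the sources used here.

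The libraries held 7187576 to 16829549 counts assigned to genes. Levels are given as CPM, the counts of a gene scaled to a fixed library size, after edgeR's TMM scaling, which corrects for a few very abundant genes. The summed level of 5 naive markers was 2824 to 2865 CPM in the mESC-2i libraries, 1525 to 1564 in those of mESC-ser and 89.0 to 102 in those of EpiLC, and that of 4 formative markers ran the other way, from 71.8 to 80.3 CPM through 609 to 711 CPM up to 1620 to 1709 CPM. Of the markers of other cells, 8 fibroblast markers summed to 52.8 to 57.2 CPM in mESC-2i, 63.5 to 83.2 in mESC-ser and 42.3 to 46.4 in EpiLC, with Lum at 3 counts or fewer in each library. In the same order, 7 neural markers summed to 172 to 201, 168 to 173 and 46.3 to 47.9 CPM, and 6 primitive endoderm markers to 18.7 to 21.1, 28.3 to 30.3 and 7.66 to 10.1 CPM. Single markers took opposite courses within the naive, primitive endoderm, neural and fibroblast sums. Of the naive markers, Zfp42 had a mean of 293 CPM in mESC-2i and 353 in mESC-ser, whereas Nanog, Klf4, Esrrb and Tfcp2l1 were lower in mESC-ser. Of the primitive endoderm markers, Gata4 (4.61 and 3.39 CPM) and Foxa2 (1.90 and 0.83) were lower in mESC-ser, and Gata6, Sox17, Sox7 and Dab2 were higher. Tubb3 made up most of the neural sum, at means of 132, 99.9 and 34.5 CPM. Pax6 had means of 1.69 CPM in mESC-2i and 25.2 in mESC-ser, whereas Sox1 had 24.1 and 6.81. Neurod1 changed there in the direction of Pax6, and Dcx in that of Sox1. Among the fibroblast markers, Thy1 was highest in EpiLC, at a mean of 29.5 CPM, where Col1a1 was lowest, at 1.47. The part of these other cells in the results was not tested. A gene was called where edgeR's quasi-likelihood test gave a Benjamini-Hochberg adjusted p under 0.05 and a log2 fold change beyond 0.5. Fold changes moved with gene length: the Spearman correlation across protein-coding genes, which are not independent replicates, was 0.280 for mESC-ser against mESC-2i, -0.300 for EpiLC against mESC-2i and -0.498 for EpiLC against mESC-ser. The fold changes of the 10 are therefore also given from a fit with offsets for exonic length and GC content, which brought these correlations to 0.0397, -0.0888 and -0.127.

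Most of the 10 subunits are long genes. Their exonic lengths ran from 4.03 kb for Smarcd1 to 14.27 kb for Smarca2, and 9 of them were longer than the median tested coding gene (about 4.4 kb). In the longest eighth of coding genes, where Smarca2, Arid1a and Arid1b lie, the median log2 fold change was 0.51, -0.73 and -1.21 in the order of comparisons above. The same trend also separated replicates: across 13657 coding genes, the deviation of a library from its group mean correlated with length at r = -0.444 in mESC-2i replicate 2 and r = 0.404 in mESC-2i replicate 3. Replicate 3 stood apart in both mESC groups, and of the 10 subunits 8 were highest there among the mESC-2i libraries (all but Smarcd1 and Smarcb1) and all 10 among the mESC-ser libraries. Leaving out mESC-2i replicate 3 took the subunits called in mESC-ser against mESC-2i from 7 to 5, since Smarca2 (-0.44) and Brd9 (-0.46) were lost, and left 4 called in EpiLC against mESC-2i. Leaving out mESC-ser replicate 3 left 7 and 6 called.

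**Figure D1:**
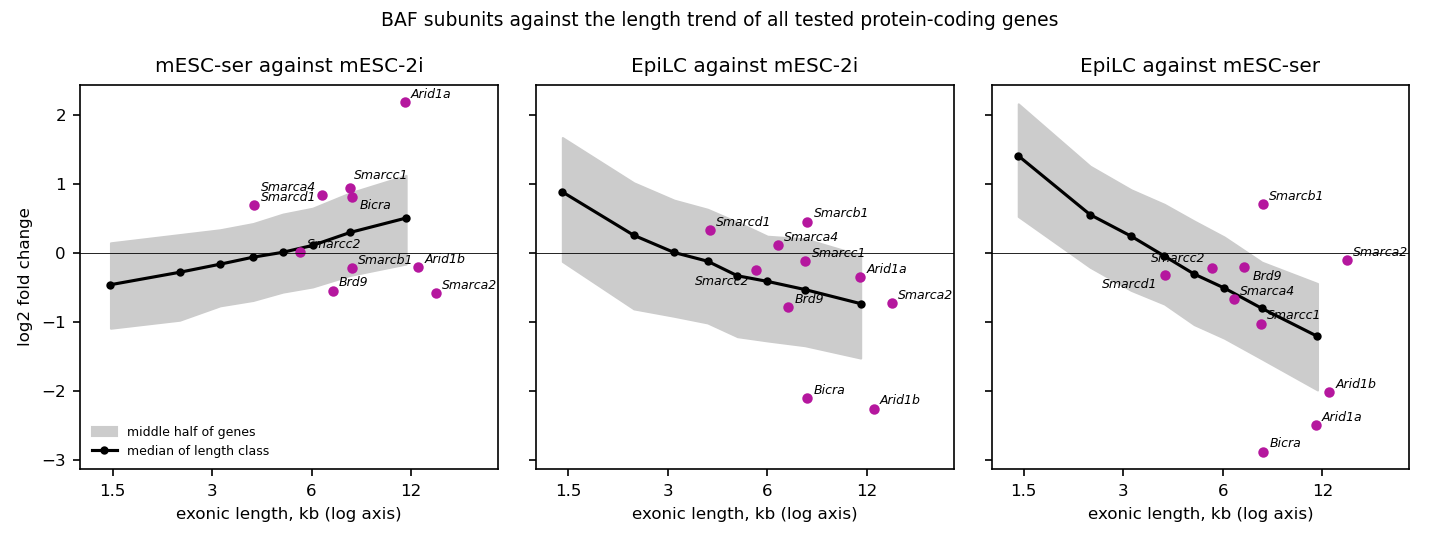
Log2 fold change (vertical axis) against exonic length in kb (horizontal log axis) in the 3 comparisons. Purple points are the 10 subunits, the black line joins the medians of 8 length classes of tested protein-coding genes, and the grey band runs between their quartiles. In EpiLC against mESC-ser the line falls from 1.41 in the shortest class to -1.21 in the longest. There Smarcb1, Smarca2, Brd9 and Smarcc2 lie above the median of their class, and Bicra, Arid1a and Arid1b lie furthest below it.

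Between mESC-ser and mESC-2i, 5 of the 10 subunits were called higher in mESC-ser (Smarca4, Smarcc1, Arid1a, Smarcd1 and Bicra), 2 lower (Smarca2 and Brd9) and 3 not called. Of all 15728 genes tested, 56.2% were called, 25.9% as higher and 30.3% as lower. The median log2 fold change was 0.36 over the subunits and -0.04 over all genes tested. With the offsets, the same numbers of subunits, 5 and 2, were called, against 53.1% of all genes (26.7% higher and 26.4% lower), with medians of 0.39 and 0.02. With the length of the main transcript in the offsets, 4 were called higher and 4 lower, as Bicra was lost and Arid1b and Smarcb1 were called lower. The CPM of the 2 groups did not overlap for 8 of the subunits, against 70.7% of all genes.

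EpiLC against mESC-2i gave 0 subunits called higher and 4 called lower (Smarca2, Arid1b, Brd9 and Bicra), against 32% and 37.8% (69.8% in all) of 15378 genes tested; edgeR gave an adjusted p under 0.05 to 6 of the 10, and the 2 of these that were not called, Smarcd1 and Smarcb1, missed only the fold threshold. The medians were -0.30 over the subunits and -0.11 over all genes. With the offsets, 4 were called higher (Smarca4, Smarcc1, Smarcd1 and Smarcb1) and 2 lower (Arid1b and Bicra), where 37.6% and 29.6% of all genes (67.3% together) were called. The median of the subunits then stood at 0.25 and that of all genes at 0.18, so the sign of the list's median turned with the length and GC offsets. The main transcript's length also gave 4 and 2. Scaling by total counts alone moved the median of all genes to -0.45 and gave 0 subunits higher and 6 lower, against 24.1% and 47.4% of all genes. The groups did not overlap for 6 subunits, against 81.8% of all genes.

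In the third comparison, EpiLC against mESC-ser, 1 subunit was called higher (Smarcb1) and 5 lower (Smarca4, Smarcc1, Arid1a, Arid1b and Bicra), where 35.5% and 37.8% of 15345 genes (73.3% together) were called. The medians were -0.49 over the subunits and -0.07 over all genes. With the offsets, 3 were called higher (Smarca2, Smarcb1 and Brd9) and 3 lower (Arid1a, Arid1b and Bicra), against 37.1% and 29% (66.1% together) of all genes, with medians of -0.26 and 0.15. With the main transcript's length these were 2 and 3, and the median of the subunits was 0.04. Total-count scaling gave 0 higher and 8 lower, against 28% and 46.9% of all genes, whose median was then -0.41. The groups did not overlap for 9 subunits, against 85.7% of all genes. The 3 comparisons share libraries in pairs, so their values are set side by side and are not independent. In bulk RNA, fewer cells of a type and less RNA per cell cannot be told apart.

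**Figure D2:**
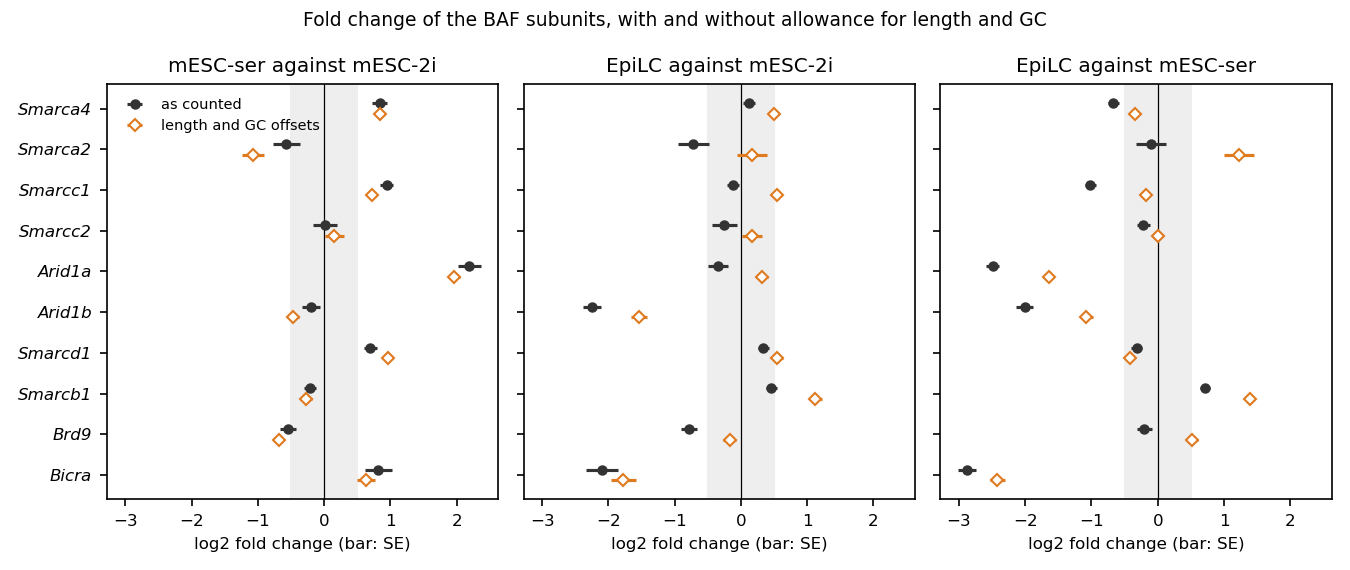
Log2 fold change of each subunit (horizontal axis) with its standard error, as counted (filled circles) and with length and GC offsets (open diamonds), in the 3 comparisons. The grey band marks changes within 0.5 either way. Arid1a in mESC-ser against mESC-2i, and Arid1b and Bicra in both EpiLC comparisons, lie outside the band with both fits.

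Arid1a, which had the largest rise of the 10 in mESC-ser against mESC-2i, encodes the DNA-binding subunit that defines one form of canonical BAF. The gene (ENSMUSG00000007880) lies on the minus strand of chromosome 4 at 133679008 to 133756769 (GRCm38). It stood at 165, 154 and 237 CPM in the mESC-2i libraries (replicates 1 to 3, in that order throughout), 840, 799 and 1002 in those of mESC-ser and 153, 135 and 155 in those of EpiLC. All 3 mESC-ser libraries were far above the other 6, and the mESC-2i and EpiLC libraries overlapped. The level was 4.56-fold higher in mESC-ser than in mESC-2i (log2 fold change 2.19, SE 0.17, edgeR adjusted p = 2.15e-06), and 3.88-fold higher with the offsets (1.96, SE 0.09). EpiLC had 0.178 times the mESC-ser level (log2 fold change -2.49, SE 0.10, edgeR adjusted p = 7.22e-13) and 0.320 times with the offsets. Without mESC-2i replicate 3 the first change was 2.41. EpiLC and mESC-2i gave -0.35 (SE 0.15, edgeR adjusted p = 0.0553), and 0.32 with the offsets, neither of them called. Total-count scaling gave -0.69, which was called.

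Arid1a alone made up 34.7% to 36.8% of the counts of the 10 subunits in mESC-ser, against 14% to 18.6% in mESC-2i and 11.8% to 13.5% in EpiLC. The 10 subunits together took 0.239% to 0.282% of all counts in mESC-ser, 0.120% to 0.142% in mESC-2i and 0.0983% to 0.104% in EpiLC. Both are shares of raw counts with no allowance for length or GC content, and the exonic length of Arid1a is 11.48 kb. They therefore carry the length trend and do not measure the amount of BAF RNA. After the offsets the Arid1a level was 161 to 193 CPM in the mESC-2i libraries, 650 to 688 in those of mESC-ser and 184 to 212 in those of EpiLC, which narrowed the spread within mESC-2i.

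Arid1b, whose protein takes the place of ARID1A in the other form of canonical BAF, followed a different course. Its level was 47.0, 40.6 and 49.7 CPM in the mESC-2i libraries, 37.7, 38.4 and 48.6 in those of mESC-ser and 8.72, 9.44 and 11.1 in those of EpiLC. The 3 EpiLC libraries lay below all 6 mESC libraries, which overlapped one another. EpiLC had 0.210 times the mESC-2i level (log2 fold change -2.25, SE 0.14, edgeR adjusted p = 1.63e-07) and 0.248 times the mESC-ser level (-2.01, SE 0.13, edgeR adjusted p = 3.87e-10). With the offsets these changes were -1.54 and -1.08, both still called. The 2 mESC states gave -0.20 (SE 0.13, edgeR adjusted p = 0.222), and -0.48 with the offsets, which was short of the fold threshold. Taking the length of the main transcript, the one with the longest coding sequence, made this value -0.78, which was called.

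Of the alternative ATPases, Smarca4 (ENSMUSG00000032187, chromosome 9, 21616169 to 21704230, plus strand, GRCm38) encodes BRG1, the catalytic subunit known from embryonic stem cells. Its level was 238, 233 and 268 CPM in the mESC-2i libraries, 432, 431 and 511 in those of mESC-ser and 261, 282 and 273 in those of EpiLC. The mESC-ser libraries were the highest, and those of mESC-2i and EpiLC overlapped. Smarca4 was 1.79-fold higher in mESC-ser than in mESC-2i (log2 fold change 0.84, SE 0.11, edgeR adjusted p = 8.6e-05), with the same fold after the offsets. EpiLC had 0.630 times the mESC-ser level (-0.67, SE 0.09, edgeR adjusted p = 1.67e-06), which was 0.16 below the median of the genes in its length class (-0.50). The offsets made this value -0.35, and with the length of the main transcript it was 0.10, and the call was lost in all 4 fits that allowed for length. EpiLC against mESC-2i gave 0.12, not called, -0.22 with total-count scaling, and 0.50 with the offsets, called at the fold threshold.

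Smarca2, which encodes the other ATPase, BRM, was the least abundant of the subunits, with 16 to 68 counts in a library. It stood at 4.67, 4.0 and 5.30 CPM in the mESC-2i libraries, 2.94, 2.97 and 3.79 in those of mESC-ser and 2.15, 3.47 and 2.89 in those of EpiLC. The mESC-2i libraries were above the other 6, which overlapped. The change in mESC-ser against mESC-2i was -0.57 (SE 0.20, edgeR adjusted p = 0.028), and -1.07 with the offsets. This call was lost in 4 of 6 fits that left out 1 library (mESC-2i replicate 1 or 3, mESC-ser replicate 1 or 2). EpiLC against mESC-2i gave -0.72 (SE 0.24, edgeR adjusted p = 0.0167), called as counted, but 0.17 with the offsets. EpiLC against mESC-ser gave -0.10, not called, and 1.23 with the offsets, called (edgeR adjusted p = 0.000118). At this depth and length the direction of Smarca2 in EpiLC depended on the allowance for length in both comparisons.

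The promoters of Arid1a and Smarca4 are examples from the 5 subunits called higher in mESC-ser against mESC-2i, as counted and with offsets. Those of the others, Smarcc1, Smarcd1 and Bicra, are not printed. Each run holds the 250 bases before the transcription start, from RefSeq on GRCm38.p6, 5′ to 3′ on the strand of the gene, with CpG dinucleotides in capitals. The Arid1a run is chr4:133756770-133757019 on the minus strand, and the Smarca4 run is chr9:21615919-21616168 on the plus strand.
Arid1a: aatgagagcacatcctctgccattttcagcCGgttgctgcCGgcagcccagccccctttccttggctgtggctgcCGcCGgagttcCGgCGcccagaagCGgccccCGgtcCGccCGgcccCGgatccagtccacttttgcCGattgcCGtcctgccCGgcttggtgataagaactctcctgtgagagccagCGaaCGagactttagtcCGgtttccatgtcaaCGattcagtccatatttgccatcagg
Smarca4: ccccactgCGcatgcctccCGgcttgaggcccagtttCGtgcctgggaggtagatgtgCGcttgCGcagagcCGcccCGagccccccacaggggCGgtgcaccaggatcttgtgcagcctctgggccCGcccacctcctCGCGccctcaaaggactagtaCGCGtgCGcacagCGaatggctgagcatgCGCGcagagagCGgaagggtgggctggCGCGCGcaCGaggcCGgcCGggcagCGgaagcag
The Arid1a run held 18 CpG and the Smarca4 run 25, against a median of 6 over 32851 promoters in the table, of which 78.3% and 89.3% held fewer. RefSeq lists a second Arid1a start, 2784 bases inside the gene, whose run held 33 CpG and 7 GGGCGG and is not printed. Of 3 motifs searched on both strands, GGGCGG occurred 1 time in Arid1a and 3 times in Smarca4, and 32.7% of all promoters held it. CCGGAA occurred 1 time in Arid1a, with a share of 12.0% over all promoters, and CACGTG, with a share of 6.02%, was in neither window. The table matched 9 of the 10 subunits. Runs of the other matched subunits held from 21 CpG (Smarcc1 and Smarcb1) to 40 (Smarcc2). A high CpG number was therefore not particular to Arid1a and Smarca4.

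The scaffold subunits Smarcc1 and Smarcc2 encode paralogs that pair at the core of the complex. Smarcc1 was at 271, 260 and 277 CPM in the mESC-2i libraries, 525, 516 and 581 in those of mESC-ser and 249, 240 and 266 in those of EpiLC. The mESC-ser libraries were well above the other 6, and the mESC-2i and EpiLC libraries overlapped. It was 1.93-fold higher in mESC-ser than in mESC-2i (log2 fold change 0.95, SE 0.10, edgeR adjusted p = 1.61e-05) and 1.65-fold with the offsets. EpiLC had 0.493 times the mESC-ser level (-1.02, SE 0.08, edgeR adjusted p = 4e-09), but the offsets made the change -0.18, which was not called. EpiLC against mESC-2i turned from -0.12, not called, to 0.54, called.

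Smarcc2 was not called in any comparison, with or without the offsets. Scaling by total counts alone called it lower in EpiLC against mESC-2i (-0.59) and against mESC-ser (-0.56). Its level was 41.6, 41.2 and 68.2 CPM in the mESC-2i libraries, 51.5, 50.2 and 57.1 in those of mESC-ser and 38.8, 41.3 and 49.0 in those of EpiLC. The mESC-2i libraries overlapped both other groups, with replicate 3 the highest of the 9, while EpiLC lay below mESC-ser. The log2 fold changes were 0.01 (SE 0.18) in mESC-ser against mESC-2i, -0.25 (SE 0.19) in EpiLC against mESC-2i and -0.21 (SE 0.10) in EpiLC against mESC-ser, and the offsets made these 0.16, 0.16 and 0.0045. Without mESC-2i replicate 3 the value for the 2 mESC states was 0.30, below the fold threshold.

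Smarcd1 encodes the core subunit through which several transcription factors are known to contact BAF. Its level was 186, 188 and 187 CPM in the mESC-2i libraries, 307, 302 and 338 in those of mESC-ser and 226, 243 and 249 in those of EpiLC, so that no groups overlapped. It was 1.62-fold higher in mESC-ser than in mESC-2i (log2 fold change 0.70, SE 0.09, edgeR adjusted p = 9.62e-05) and 1.95-fold with the offsets. EpiLC gave 0.34 against mESC-2i (edgeR adjusted p = 0.00415), short of the fold threshold as counted and 0.55 with the offsets, which was called. EpiLC against mESC-ser gave -0.32 and, with the offsets, -0.42, neither called. Smarcd1 shares 12.69% of its exonic bases with genes on the opposite strand, and since the library kit does not mark strand, some of its reads could belong to them.

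Smarcb1, which encodes a core subunit that contacts the nucleosome acidic patch, was the one subunit highest in EpiLC. Its level was 115, 125 and 115 CPM in the mESC-2i libraries, 107, 103 and 110 in those of mESC-ser and 163, 167 and 163 in those of EpiLC. The 3 EpiLC libraries lay above all others, and the mESC-ser libraries below all others. Smarcb1 was 1.64-fold higher in EpiLC than in mESC-ser (log2 fold change 0.71, SE 0.08, edgeR adjusted p = 1.63e-07) and 2.63-fold with the offsets (1.40). The median log2 fold change of genes of its length was -0.80 as counted and 0.01 with the offsets. Scaling by total counts alone gave 0.37 and ended this call. Against mESC-2i the change in EpiLC was 0.46 (SE 0.08, edgeR adjusted p = 0.000469), below the fold threshold, and 1.12 with the offsets, a 2.18-fold difference that was called. The offset levels were 94.6 to 120 CPM in the mESC-2i libraries, 87.0 to 90.9 in those of mESC-ser and 216 to 223 in those of EpiLC. The 2 mESC states differed by -0.21 (SE 0.09, edgeR adjusted p = 0.0651), and by -0.27 with the offsets, neither called. With the length of the main transcript this value was -0.52, which was called.

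Bicra and Brd9 encode subunits of GBAF, and their levels took separate courses. Bicra, which encodes GLTSCR1, stood at 20.6, 15.6 and 29.7 CPM in the mESC-2i libraries, 39.6, 36.2 and 45.4 in those of mESC-ser and 5.10, 4.66 and 5.90 in those of EpiLC. No groups overlapped, and with a range of group means of 2.91 on the log2 scale Bicra varied most among the 10. EpiLC had 0.137 times the mESC-ser level (log2 fold change -2.87, SE 0.14, edgeR adjusted p = 6.23e-12) and 0.234 times the mESC-2i level (-2.10, SE 0.25, edgeR adjusted p = 1.81e-05). With the offsets these were -2.42 and -1.78, both still called. Bicra was 1.76-fold higher in mESC-ser than in mESC-2i (0.82, SE 0.21, edgeR adjusted p = 0.00505), 1.12 without mESC-2i replicate 3, 0.63 with the offsets, and 0.49, just short of the threshold, with the length of the main transcript.

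Brd9, which encodes a bromodomain protein that binds acylated lysines, was at 32.9, 34.6 and 39.5 CPM in the mESC-2i libraries, 25, 23.9 and 27.6 in those of mESC-ser and 21.2, 18.9 and 23.0 in those of EpiLC. No groups overlapped, with mESC-2i the highest. The change in mESC-ser against mESC-2i was -0.54 (SE 0.12, edgeR adjusted p = 0.00208), and -0.69 with the offsets. This call was just past the fold threshold and was lost in 3 of 6 fits that left out 1 library (mESC-2i replicate 3, mESC-ser replicate 1 or 2). EpiLC against mESC-2i gave -0.79 (SE 0.12, edgeR adjusted p = 0.000128), called as counted, and -0.17 with the offsets, not called. EpiLC against mESC-ser turned from -0.20, not called, to 0.51, called.

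**Figure D3:**
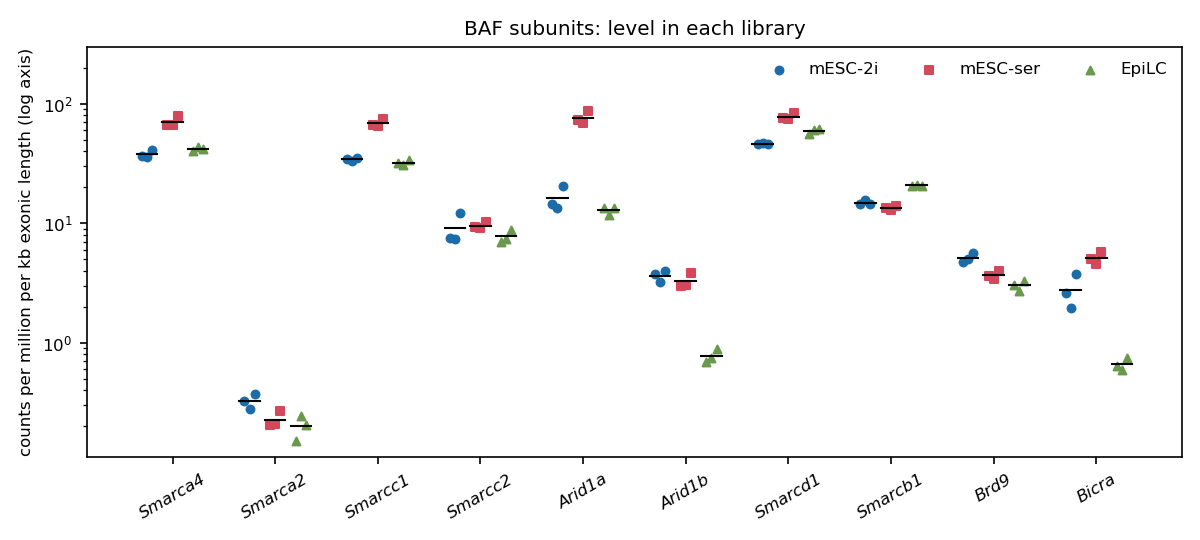
Level of each subunit in each library, in CPM per kb of exonic length (log axis), with a black line at the mean of 3 libraries. Blue circles are mESC-2i, red squares mESC-ser and green triangles EpiLC. Arid1a joins the highest group in mESC-ser, Arid1b and Bicra lie far lower in EpiLC than in both mESC states, and Smarca2 lies at the bottom in every state. Smarca2, Smarcc1, Smarcc2, Arid1a and Brd9 also have their lowest mean in EpiLC.

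Levels can be compared between genes only per length, here as CPM per kb of exonic sequence. On this measure Smarcd1 had the highest mean in every state, with a mean of 46.4 CPM per kb in mESC-2i, of 78.5 in mESC-ser and of 59.4 in EpiLC. In mESC-2i it was followed by Smarca4 at 38.0 and Smarcc1 at 34.4, and then, much lower, by Arid1a at 16.1 and Smarcb1 at 14.9 CPM per kb, whose libraries overlapped. In mESC-ser, Arid1a at 76.7 CPM per kb stood level with Smarcd1, Smarca4 at 70.7 and Smarcc1 at 69.1, each overlapping its neighbour in the order. In EpiLC the order was Smarcd1, Smarca4 at 42.0, Smarcc1 at 32.1, Smarcb1 at 20.8 and Arid1a at 12.9 CPM per kb, so that Arid1a and Smarcb1 had changed places.

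The lower part of the order held Smarcc2, Brd9, Arid1b, Bicra and Smarca2. Smarcc2 was at 9.07, 9.54 and 7.75 CPM per kb in mESC-2i, mESC-ser and EpiLC. Arid1b and Bicra overlapped in mESC-2i (3.63 and 2.77 CPM per kb) and in EpiLC (0.773 and 0.658), while in mESC-ser Bicra at 5.09 stood above Brd9 at 3.67 and Arid1b at 3.30 CPM per kb, the last of these overlapping. Smarca2 was last in each state, at 0.326, 0.227 and 0.199 CPM per kb. Its annotation joins the exons of 46 transcripts, and per kb of the main transcript its level was 0.786, 0.546 and 0.479 CPM, also last. Per kb of the main transcript, Smarcc1 ranked above Smarca4 in all 3 states, and Arid1a at 107 CPM stood above Smarcd1 at 95.5 CPM in mESC-ser, where their libraries overlapped.

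The balance within paralog pairs was compared as the log2 ratio of the 2 levels per kb in each library, which does not depend on library scaling. The ratio of Arid1a to Arid1b was 3.85 to 5.23 in the mESC-2i libraries, 22.6 to 24.5 in mESC-ser and 15.4 to 19.2 in EpiLC, with log2 means of 2.13 ± 0.23, 4.54 ± 0.06 and 4.06 ± 0.18 (SD, n = 3). No groups overlapped. The difference was 2.41 for mESC-ser against mESC-2i, where Arid1a was higher, and 1.93 for EpiLC against mESC-2i, where Arid1b was lower, and these stood at 2.44 and 1.88 after the offsets. EpiLC against mESC-ser gave -0.48, and -0.56 after the offsets.

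The ratio of Smarca4 to Smarca2 was 111 to 128 in mESC-2i, 297 to 324 in mESC-ser and 179 to 268 in EpiLC, with log2 means of 6.87 ± 0.12, 8.29 ± 0.07 and 7.75 ± 0.29 (SD, n = 3), again with no overlap. The size of this ratio depends on the length taken for Smarca2. Per kb of the main transcripts it was 46.9 to 54.1, 125 to 137 and 75.4 to 113 in the same order. The log2 differences between states moved with the length and GC offsets. They went from 1.42 to 1.91 for mESC-ser against mESC-2i, from 0.88 to 0.39 for EpiLC against mESC-2i and from -0.54 to -1.52 for EpiLC against mESC-ser. The log2 ratio of Smarcc1 to Smarcc2 was 1.97 ± 0.38, 2.86 ± 0.01 and 2.06 ± 0.12 (SD, n = 3) in mESC-2i, mESC-ser and EpiLC, and mESC-2i and EpiLC overlapped. After the offsets the difference for mESC-ser against mESC-2i went from 0.89 to 0.55 and that for EpiLC against mESC-ser from -0.80 to -0.20. With 3 libraries a group, a two-sided exact permutation test cannot go below 0.1, and 8 of the 9 comparisons reached it (0.1125 after Benjamini-Hochberg adjustment over the 9). The exact permutation p for Smarcc1 to Smarcc2 in EpiLC against mESC-2i was 0.9, for a difference of 0.09.

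**Figure D4:**
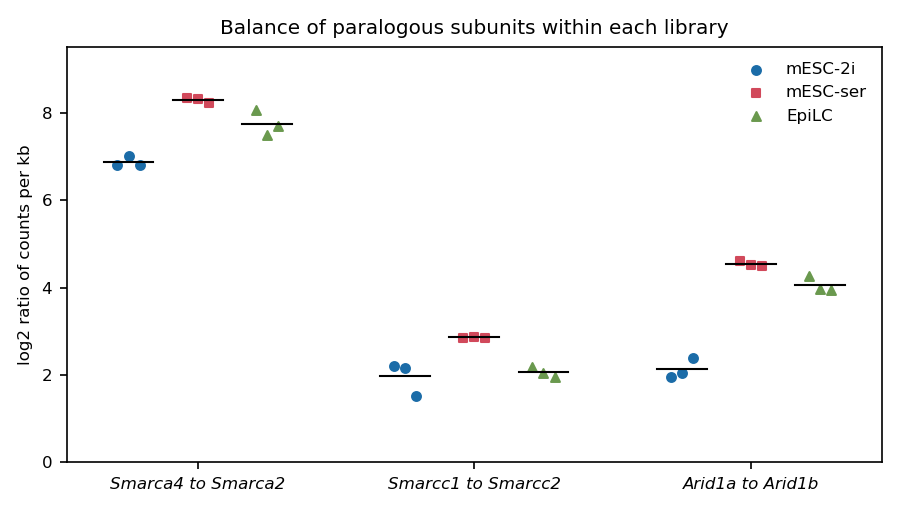
Log2 ratio of counts per kb (vertical axis) for 3 paralog pairs in each library, with a black line at the mean of 3 libraries. Blue circles are mESC-2i, red squares mESC-ser and green triangles EpiLC. The Arid1a to Arid1b ratio is lowest in mESC-2i, at a log2 mean of 2.13, and highest in mESC-ser, at 4.54.

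Of 21 further subunits of BAF, PBAF and GBAF, 19 were abundant enough to be tested. In mESC-ser against mESC-2i, 8 were called higher and 1 lower, against 25.9% and 30.3% of all genes, with a median log2 fold change of 0.18 against -0.04. EpiLC against mESC-2i gave 6 higher and 2 lower, against 32% and 37.8% of all genes, with medians of -0.08 and -0.11. EpiLC against mESC-ser gave 4 higher and 6 lower, against 35.5% and 37.8%, with medians of -0.12 and -0.07. With the offsets the counts were 6 and 1, 10 and 2, and 7 and 4 in the same order, where 26.7% and 26.4%, 37.6% and 29.6%, and 37.1% and 29% of all genes were called. Actl6b and Dpf3, named here after their values were seen, were not tested, with 0 to 4 and 2 to 9 counts in a library. Actl6b is known from the neuronal form of the complex and Dpf3 from heart and muscle.

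Bicral, the paralog that can take the place of Bicra in GBAF, followed Bicra closely. Its level was 54.8, 54.1 and 75.7 CPM in the mESC-2i libraries, 137, 136 and 159 in those of mESC-ser and 12.1, 9.33 and 11.3 in those of EpiLC. On the log2 scale mESC-ser differed from mESC-2i by 1.17, EpiLC from mESC-2i by -2.52 and EpiLC from mESC-ser by -3.65. With the offsets these were 1.2, -1.90 and -3.10, all called in both fits. Bicral shares 11.27% of its exonic bases with a noncoding gene on the opposite strand.

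Smarcd3, a paralog of Smarcd1, was at 44.7, 53.9 and 51.5 CPM in the mESC-2i libraries, 6.30, 6.62 and 5.34 in those of mESC-ser and 1.21, 1.74 and 1.76 in those of EpiLC. It was lower in mESC-ser than in mESC-2i by a log2 fold change of -3.10 and lower in EpiLC by -4.99 against mESC-2i and -1.84 against mESC-ser, and the offsets made these -3.05, -4.85 and -1.80. No groups overlapped, and Smarcd1 took the opposite course from mESC-2i to mESC-ser. Smarcd3 shares 48.16% of its exonic bases with Chpf2 on the opposite strand, so its reads are uncertain.

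The PBAF subunits Arid2 and Pbrm1, which target that form of the complex, were higher in mESC-ser than in mESC-2i by 1.78 and 1.54 on the log2 scale (1.25 and 1.05 with the offsets). In EpiLC against mESC-ser they gave -1.12 and -1.67, which the offsets made 0.13, not called, and -0.52, called. EpiLC against mESC-2i gave 0.61 for Arid2 (1.37 with the offsets), called in both fits. For Pbrm1 it turned from -0.18, not called, to 0.50, called. Dpf1, a plant homeodomain subunit known from the neuronal complex, was higher in mESC-ser (2.07, and 2.12 with the offsets) and in EpiLC (1.43, and 1.63) than in mESC-2i. The zinc-finger subunits Bcl11a and Bcl11b and the accessory subunit Bcl7c were higher in EpiLC than in mESC-2i by 3.28, 2.36 and 2.15, and higher than in mESC-ser by 2.43, 1.90 and 2.47. With the offsets all 6 of these values were larger. Actb, which encodes the actin that BAF shares with the cytoskeleton, gave 0.57 in EpiLC against mESC-ser, called, and 0.20 with the offsets, not called. Against mESC-2i it gave 0.68 in mESC-ser (1.08 with the offsets) and 1.21 in EpiLC (1.28), called in both fits.

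**Figure D5:**
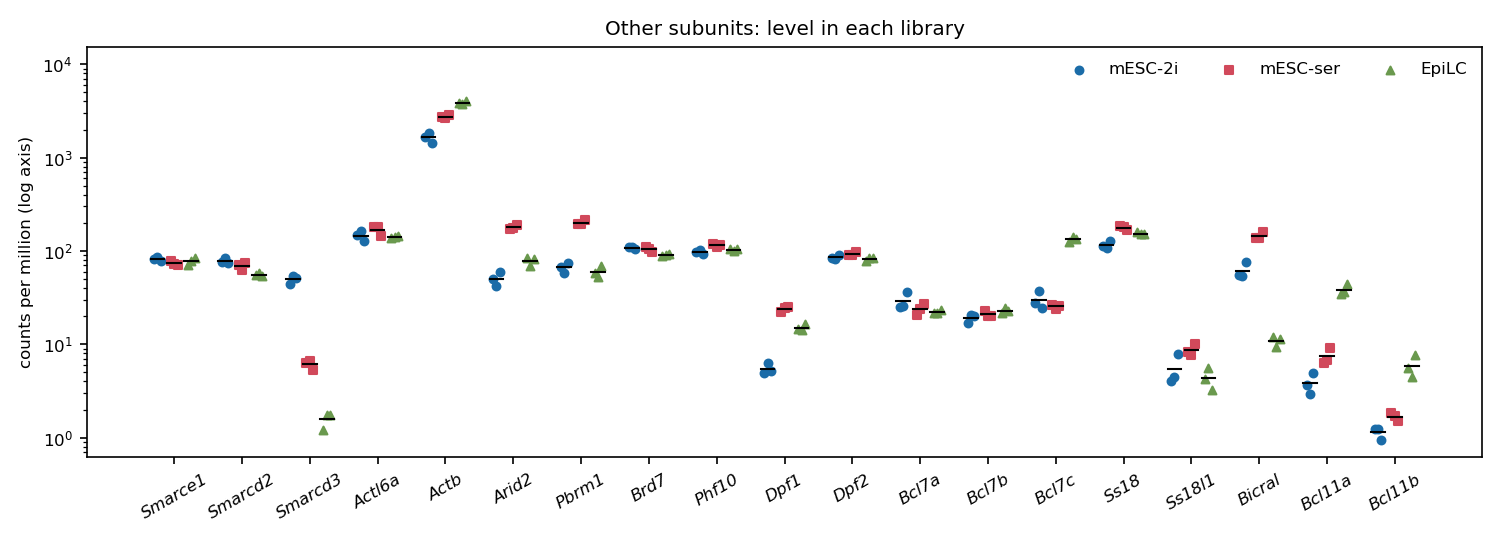
Level of the 19 further subunits that were tested, in CPM (log axis) in each library, with a black line at the mean of 3 libraries. Blue circles are mESC-2i, red squares mESC-ser and green triangles EpiLC. Smarcd3 falls from mESC-2i to EpiLC, Bicral is lowest in EpiLC, and Bcl7c, Bcl11a and Bcl11b are highest there.

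The 17 other remodelling ATPases, of the ISWI, CHD and INO80 families and their relatives, were all tested and serve as a frame for Smarca4 and Smarca2. In mESC-ser against mESC-2i, 16 of them were called higher and 1 lower (25.9% and 30.3% of all genes), and 13 and 1 with the offsets (26.7% and 26.4%). EpiLC against mESC-2i gave 3 higher and 8 lower (32% and 37.8%), and 7 and 3 with the offsets (37.6% and 29.6%). EpiLC against mESC-ser gave 0 higher and 16 lower (35.5% and 37.8%), and 2 and 8 with the offsets (37.1% and 29%). The rise of Smarca4 in mESC-ser, 0.84, was below the median of these ATPases, 1.34, and next to it with the offsets, 0.84 and 0.87.

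Likeness of pattern was measured as Pearson's r of log2 CPM over the 9 libraries, which share the length trend and fall into 3 groups. Among 28 other BAF genes, the one most like Arid1a was Smarcc1 (r = 0.994) and the one most like Smarcc1 was Pbrm1 (0.996). Bicra was most like Bicral (0.992), Arid1b most like Bicra (0.925) and Smarcb1 most like Bcl7c (0.985). Smarca4 and Smarcd1 were both most like Arid2 (0.961 and 0.960), Brd9 and Smarca2 both most like Smarcd3 (0.942 and 0.829), and Smarcc2 most like Dpf2 (0.799). Over all tested coding genes, Bicra was most like Baz2a, Ddx42 and Plag1 (each 0.999), and 1245 of 13656 genes passed an r of 0.95 with it.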

How the data were processed

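RNA was poly-A enriched, made into libraries with a kit that does not mark strand (TruSeq RNA v2) and sequenced as 50 bp single-end reads. The authors trimmed reads with Trim Galore 0.6.6, aligned them to mm10 with HISAT2 2.2.1 and deposited raw counts per gene from featureCounts (Subread 2.0.1). The annotation release, the strand setting and the treatment of multi-mapping reads were not given in the sources used here. Groups and replicate numbers came from the labels, and columns named SL were read as serum and LIF.

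Each pair of groups was fitted alone with edgeR 4.0.16 in R 4.3.3 (filterByExpr, TMM, quasi-likelihood F-test over all genes that passed). The fold threshold of 0.5 is the one the study applied to gene expression. All 10 subunits passed the filter in every comparison. Offsets were natural splines with 5 degrees of freedom in log exonic length and GC content per library, from GENCODE M21 (GRCm38), which matched 95.1% of the genes. Levels after offsets are CPM divided by those trends. Standard errors were derived from the F statistic. Scripts were tested on simulated data.

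The genes named beyond the 10 are, per comparison, up to 4 called subunits with the largest change in each direction, those with 3 counts or fewer in every library (no subunit met this), and the most alike genes. Actl6b and Dpf3 are named outside this rule. The subunits and lists were chosen with earlier results of these data known. No replicate pair agreed within sampling noise, and mESC-2i replicate 3 differed most from the others of its group (chi-square per degree of freedom 12.6 and 28.3, against 3.85 between replicates 1 and 2).

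Libraries with the same replicate number deviated together in mESC-ser and mESC-2i (r = 0.141 to 0.359 over genes), over the limit of 0.1 in every pair. The values printed for this comparison nevertheless come from fits without a block for the replicate number. The permutation tests of the ratios ignored the number too. With the block, the edgeR adjusted p there was 0.0285 for Smarcb1 and 0.0809 for Arid1b, neither called. In the comparisons with EpiLC the correlations were 0.0153 to 0.132 and 0.0124 to 0.0360, which did not meet the limit of 0.1 in every pair. Alternatives were other scalings, filters and thresholds, DESeq2 1.42.0, the replicate block, the offsets, and leaving out each library.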

Additional observations from a re-analysis of the deposited data

How the results depend on the processing

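Depth limits Smarca2 most, and the length trend limits every value in EpiLC, since the offsets left a part of it. Of 30 subunit values under 12 alternatives and 6 fits without 1 library each, 453 kept direction and call, 24 lost the call, 23 gained it and 40 turned in sign; the causes of these changes were not tested.

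The replicate block changed no subunit call: it gave 7, 4 and 6 subunits and 8953, 10759 and 11207 genes called, with mESC-ser against mESC-2i first, then EpiLC against mESC-2i and last EpiLC against mESC-ser, where the fits without it gave 7, 4 and 6 and 8843, 10732 and 11246. In EpiLC against mESC-2i all 6 libraries correlated best with their own number. This held for 5 of 6 in mESC-ser against mESC-2i and for 4 of 6 in EpiLC against mESC-ser. In mESC-ser against mESC-2i, correlations between different numbers reached 0.157, above the lowest between equal numbers, 0.141.

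With a log2 fold threshold of 1, mESC-ser against mESC-2i kept 4935 genes, 1 of the 10 subunits and 5 of the further subunits, and EpiLC against mESC-2i kept 2 of the 10. After the offsets the log2 ratio of Smarca4 to Smarca2 differed by 1.91, 0.39 and -1.52 in the 3 comparisons, in the order above, and that of Smarcc1 to Smarcc2 by 0.55 for the first and -0.20 for the last of them. Leaving out 1 library at a time, the Smarcc1 to Smarcc2 difference in EpiLC against mESC-2i ranged from -0.13, without mESC-2i replicate 3, to 0.21. The counts of subunits called ranged from 5 to 7, 3 to 5 and 6 to 6.

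Signs turned as follows. In mESC-ser against mESC-2i, Smarcc2 gave -0.021 with upper-quartile scaling, -0.035 with total counts, -0.013 with the length offset alone and -0.13 to 0.30 without 1 library. In EpiLC against mESC-2i, total counts gave -0.22 for Smarca4 and -0.0016 for Smarcd1. There the length and GC offsets, the length offset alone, the block with both offsets and the main transcript's length gave Smarca2 0.17, 0.15, 0.17 and 0.051, Smarcc1 0.54, 0.49, 0.54 and 0.63, Smarcc2 0.16, 0.22, 0.19 and 0.27, and Arid1a 0.32, 0.43, 0.32 and 0.39. Smarcc2 ranged from -0.34 to 0.042 without 1 library. In EpiLC against mESC-ser, the same 4 settings gave Smarca2 1.23, 1.27, 1.22 and 0.95, Smarcc2 0.0045, 0.23, 0.0049 and 0.16, and Brd9 0.51, 0.50, 0.52 and 0.46. Smarca4 was 0.097 with the main transcript's length, and Smarca2 ranged from -0.28 to 0.069 without 1 library.

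Total counts ended the call of Smarcb1 in EpiLC against mESC-ser (0.37). They added calls as lower for Arid1a (-0.69) and Smarcc2 (-0.59) in EpiLC against mESC-2i. In EpiLC against mESC-ser they did so for Smarcc2 (-0.56), Smarcd1 (-0.66) and Brd9 (-0.54). DESeq2 ended both calls of Smarca2 against mESC-2i, that in EpiLC also lost without EpiLC replicate 1 (-0.55). A minimum of 10 counts in every library ended that of Brd9 in mESC-ser against mESC-2i (-0.49).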
